A study of Mus musculus with 10 samples.

Results

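The 10 genes described here, Sst, Pvalb, Vip, Reln, Calb2, Nos1, Cort, Lhx6, Erbb4 and Cnr1, are used to tell the classes of hippocampal interneurons apart. They were chosen by symbol, and each was measured by 1 transcript cluster of its own among the 22206 clusters of the Clariom S Mouse array. The hippocampi came from male mice, 5 of the DU6 line and 5 of the FztDU line, with 1 mouse per array. DU6 is an outbred line selected over many generations for high body mass, and FztDU is the outbred line without that selection from the same institute. The sources name no engineered allele and no treatment for either line. Both were kept free of specified pathogens with food at will, and the labels give an age of 21 to 22 weeks. The study asked whether the hippocampus of the obese line shows signs of inflammation, and the interneuron genes were measured along with all others.

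Interneurons release GABA onto nearby neurons and set the timing and gain of the pyramidal and granule cells. Cells that contain somatostatin inhibit distal dendrites, cells that contain parvalbumin inhibit the soma and the axon initial segment, and many cells that contain VIP or calretinin inhibit other interneurons. Neurogliaform and ivy cells make reelin or neuronal nitric oxide synthase, and basket cells that contain cholecystokinin carry the cannabinoid receptor CB1 on their terminals. Several of these markers are not confined to interneurons. Calretinin marks mossy cells of the mouse dentate gyrus, CB1 is also made by pyramidal cells, and cerebellar neurons make parvalbumin, calretinin, reelin, CB1 and nitric oxide synthase. In whole tissue, fewer cells of a class and less RNA per cell cannot be told apart.

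The promoter windows of the 3 peptide genes Sst, Vip and Cort are shown because the somatostatin promoter is the textbook case of a cAMP response element, the site bound by the factor CREB. Each window holds the 250 bases before the annotated transcription start, read in the direction of transcription from RefSeq on GRCm38.p6, and capitals mark the half-site TGACG or its reverse CGTCA.
Sst (chr16:23890845-23891094, minus strand): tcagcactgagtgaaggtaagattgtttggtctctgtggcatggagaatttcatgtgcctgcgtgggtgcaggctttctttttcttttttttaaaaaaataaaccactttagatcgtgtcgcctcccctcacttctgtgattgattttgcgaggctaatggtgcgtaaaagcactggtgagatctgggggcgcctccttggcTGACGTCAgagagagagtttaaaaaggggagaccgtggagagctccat
Vip (chr10:5638968-5639217, plus strand): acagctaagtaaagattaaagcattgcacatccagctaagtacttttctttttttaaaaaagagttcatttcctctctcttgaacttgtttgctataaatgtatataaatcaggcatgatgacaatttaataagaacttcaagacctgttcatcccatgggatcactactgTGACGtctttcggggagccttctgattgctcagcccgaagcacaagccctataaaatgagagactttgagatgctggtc
Cort (chr4:149126764-149127013, minus strand): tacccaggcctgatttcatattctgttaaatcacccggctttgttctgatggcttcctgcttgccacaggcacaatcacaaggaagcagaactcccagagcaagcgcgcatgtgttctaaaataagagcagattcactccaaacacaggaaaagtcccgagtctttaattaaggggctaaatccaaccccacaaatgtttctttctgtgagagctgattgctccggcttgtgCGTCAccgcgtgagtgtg
In the Sst window the 2 half-sites overlap to give the full palindrome TGACGTCA, whose first base lies 48 bases before the start. The Vip window holds 1 half-site that begins 79 bases before the start, and the Cort window holds 1 that begins 18 bases before it. The palindrome was found in 1.55% of 32851 promoter windows of the same length, and the half-site, searched on both strands and counted also within the palindrome, in 17.8%. The table holds 14 windows of 9 members, of which 4 windows, of Sst, Vip, Cort and Nos1, had the half-site and 1 had the palindrome. These matches describe letters and not binding.

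All 10 members were called expressed in both lines by the authors' array software, and all lay above the lowest 50% of clusters by mean signal. The arrays had medians between 5.47 and 5.52 on the log2 scale. Of the hippocampal markers, 10 of 10 list genes were called expressed in both lines, a call made per line and not per array. DU6 replicate 2 stood apart, however. Its mean over 11 cerebellar genes was 9.44, against 4.77 to 5.33 in the other 9 arrays, and Gabra6, a receptor subunit of cerebellar granule cells, read 11.11 there and 2.18 to 2.72 elsewhere. Of these 11 genes, 9 were called expressed in both lines and Gabra6 in neither. In DU6 replicate 2 the mean of the hippocampal list was the lowest of all arrays, 6.79 against 7.27 to 7.65. That mean leaves out Zbtb20, whose cluster also carries a microRNA symbol. The list mean of choroid plexus genes was 8.28 to 8.73 in 3 arrays (DU6 replicates 1 and 5, FztDU replicate 5) and 5.39 to 6.53 in the other 7. The members' differences are therefore given with and without DU6 replicate 2.

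No interneuron marker passed the test for a difference between DU6 and FztDU mice. With limma over all 22206 clusters, 0 of 10 were called at an adjusted p under 0.05 and a fold over 2, against 0.113% of all clusters. With no adjustment of p, 0 members passed 0.05 in the higher direction and 0 in the lower one, against 2.7% and 3.17% of all clusters. For each of the 10 the arrays of the lines overlapped, while they did not for 1.22% of all clusters. The log2 difference, DU6 minus FztDU, was above 0 for 7 members (50.5% of all clusters were) and below 0 for 3, with a median of 0.075, beside 0.002 over all clusters. Without DU6 replicate 2, it was above 0 for 4 and below 0 for 6, with a median of -0.023, 0 were called (0.108% of all clusters were) and 0 passed at an unadjusted p under 0.05 in either direction (6.55% of all clusters did).

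**Figure D1:**
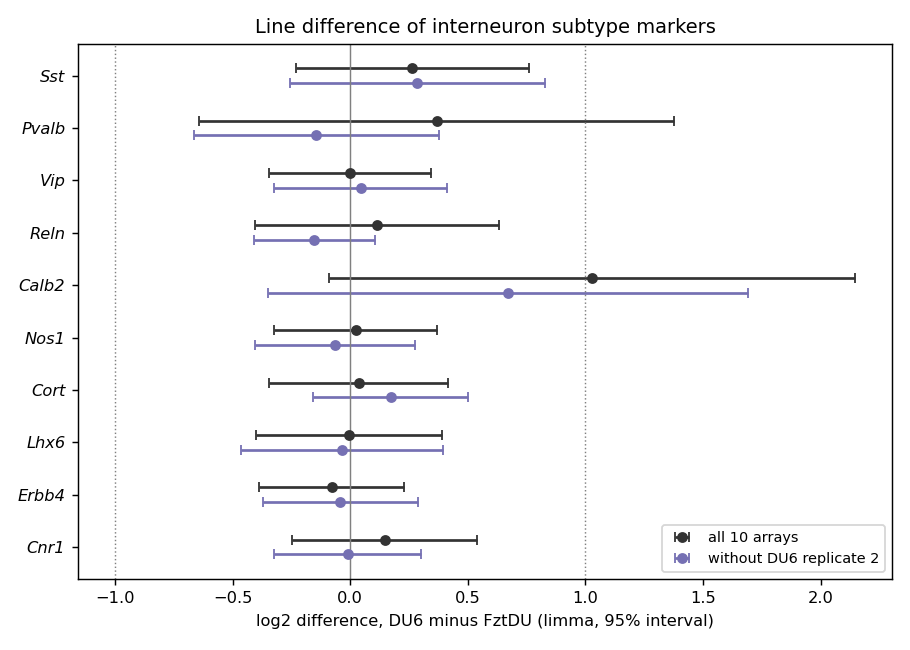
Log2 difference in signal, DU6 minus FztDU, of each member (points, x axis) with its 95% interval from limma (bars), for all 10 arrays (black) and without DU6 replicate 2 (purple); dotted lines mark a fold of 2. Every interval spans 0, and that of Calb2 reaches from -0.09 to 2.15.

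Among the neuropeptides, somatostatin (Sst, chromosome 16, 23889579 to 23890844 on mm10) acts as an inhibitory co-transmitter of dendrite-targeting cells. Its log2 signal was 9.97, 9.85, 9.95, 10.19 and 9.74 in DU6 replicates 1 to 5, and 8.84, 10.06, 10.19, 9.31 and 9.98 in FztDU replicates 1 to 5. FztDU replicates 1 and 4 lay below every DU6 array, while the other 3 FztDU arrays lay among the DU6 arrays or level with the highest. The means were 9.94 ± 0.17 in DU6 and 9.68 ± 0.58 in FztDU (SD, n = 5 each), a difference of 0.26 (95% interval -0.23 to 0.76, adjusted p = 0.985 in limma). Without DU6 replicate 2 it was 0.29 (-0.26 to 0.83), and without FztDU replicate 1 it was 0.055. Marker genes of the subfields, named after their values were seen, moved with those low arrays. Tdo2, a dentate granule cell gene, was highest in FztDU replicates 1 and 4 at 6.74 and 6.07, against 4.37 to 5.66 elsewhere. Prox1, the dentate granule cell factor, was also highest there, at 9.51 and 9.30 against 8.43 to 9.05. Of the CA1 gene Wfs1, FztDU replicates 1 and 4 had 7.72 and 7.66, the lowest values apart from 7.30 in DU6 replicate 2. The part of subfield content in the Sst values was not tested.

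Cortistatin (Cort, chromosome 4, 149125034 to 149126763) is a close relative of somatostatin that binds the same receptors and is made by a subset of interneurons. It read 6.96, 6.34, 6.66, 7.26 and 7.19 in DU6 and 6.73, 6.79, 7.03, 7.11 and 6.57 in FztDU. The lines overlapped widely, and the lowest array was DU6 replicate 2. The difference was 0.036 (95% interval -0.35 to 0.42, adjusted p = 0.995 in limma), and 0.17 (-0.16 to 0.50) without DU6 replicate 2. VIP (Vip, chromosome 10, 5639218 to 5647614) marks the cells that inhibit other interneurons. Its signal was 6.68, 6.32, 6.55, 6.73 and 6.24 in DU6 and 6.10, 6.89, 6.64, 6.24 and 6.66 in FztDU. Both lines spanned nearly the same range, and the means were 6.50 ± 0.22 and 6.51 ± 0.33 (SD, n = 5 each). The interval of the Vip difference was -0.35 to 0.34, and only that of Erbb4 was narrower. Without DU6 replicate 2 the difference was 0.044 (-0.32 to 0.41).

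**Figure D2:**
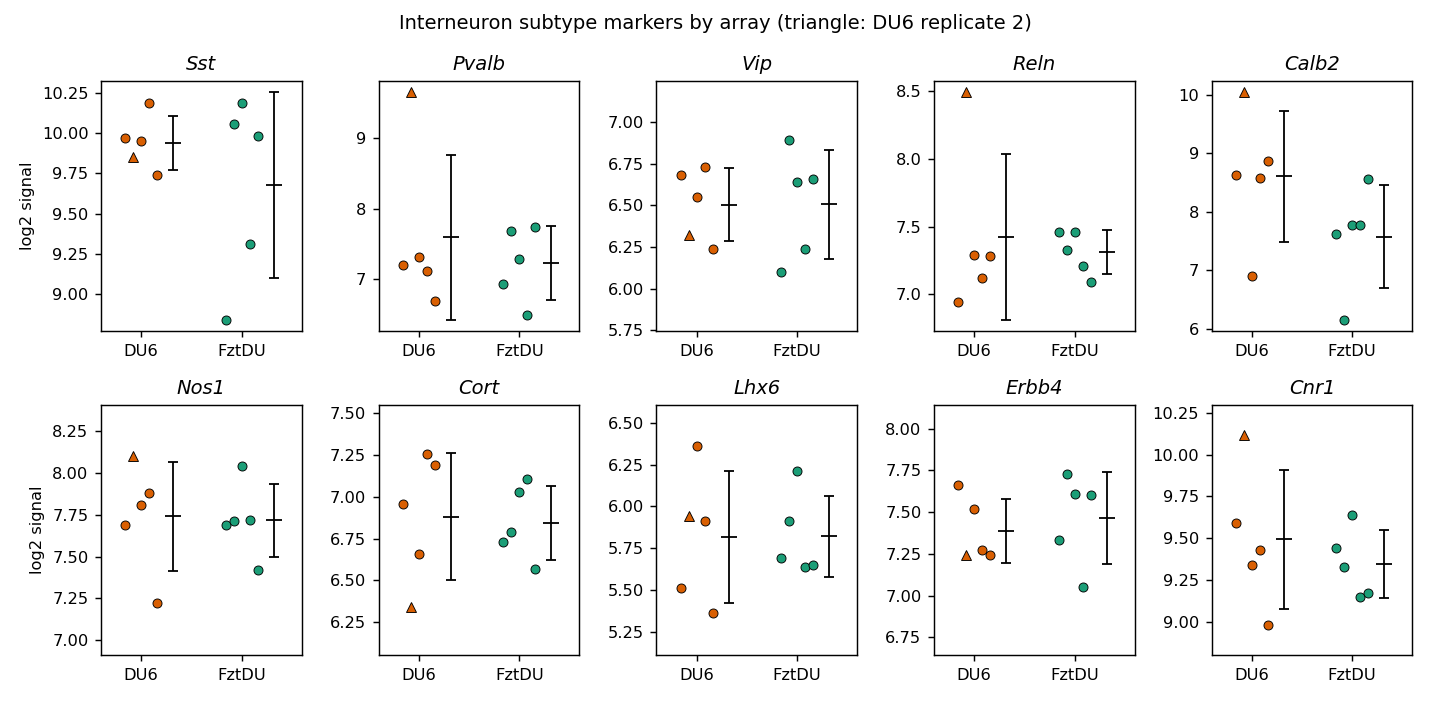
Log2 signal of the 10 members (y axis, a scale of its own in each panel) in the DU6 arrays (orange) and the FztDU arrays (green), with 1 point per mouse and bars for mean and SD; triangles mark DU6 replicate 2. The triangle is the highest point for Pvalb, Reln, Calb2, Nos1 and Cnr1 and the lowest for Cort.

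Over all 10 arrays the calcium-binding proteins varied most of the members, and without DU6 replicate 2 the within-line SD of Sst (0.453) exceeded that of Pvalb (0.434). Parvalbumin (Pvalb, chromosome 15, 78191114 to 78206400) buffers calcium in fast-spiking basket and axo-axonic cells, and in the cerebellum in Purkinje cells and molecular layer interneurons. It read 7.20, 9.65, 7.32, 7.12 and 6.70 in DU6 and 6.93, 7.69, 7.29, 6.50 and 7.74 in FztDU. Without the value of 9.65 in DU6 replicate 2, the other 4 DU6 arrays lay within the FztDU range. The difference of 0.37 (95% interval -0.64 to 1.38, adjusted p = 0.993 in limma) turned to -0.145 (-0.67 to 0.38) without that array. Within the lines the SD of Pvalb was 0.907, at or above that of 99.6% of all clusters, and 0.434 without DU6 replicate 2, at or above 96.8%.

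Calretinin (Calb2, chromosome 8, 110137504 to 110168206), the calcium buffer of interneuron-selective cells, had the widest spread of the 10 and the largest difference. Its signal was 8.63, 10.04, 6.90, 8.58 and 8.87 in DU6 replicates 1 to 5 and 7.61, 6.15, 7.78, 7.77 and 8.56 in FztDU replicates 1 to 5. In DU6, 4 of 5 arrays lay above every FztDU array, though DU6 replicate 4 exceeded FztDU replicate 5 by little, and DU6 replicate 3 lay below all FztDU arrays but replicate 2. The means were 8.60 ± 1.12 and 7.57 ± 0.88 (SD, n = 5 each), a difference of 1.03 (95% interval -0.09 to 2.15), with an unadjusted p of 0.0679 and an adjusted p of 0.902 in limma and an exact permutation p of 0.135. Over all clusters 0.275% had an absolute difference over 1. Single arrays decided its size. The difference was 0.67 without DU6 replicate 2 (95% interval -0.35 to 1.69) and also 0.67 without FztDU replicate 2, 1.46 without DU6 replicate 3 (unadjusted p = 0.00568, adjusted p = 0.463 in limma) and 1.28 without FztDU replicate 5 (unadjusted p = 0.0323, adjusted p = 0.778 in limma).

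Markers of other tissue moved with Calb2 in part of the arrays. The 3 arrays high in choroid plexus genes, with Calb2 at 8.56 to 8.87, were among the 5 highest for Calb2, and the highest was the array with cerebellar genes. The thalamus and habenula list was highest in the same 3 arrays as the choroid plexus list, with means of 6.17, 6.82 and 6.61 in DU6 replicates 1 and 5 and FztDU replicate 5, against 5.25 to 6.06 in the other 7. Without these 4 arrays the difference was 0.41 (95% interval -0.82 to 1.64), from 2 DU6 and 4 FztDU arrays. With the cerebellar mean as a covariate it was 0.57 and with the choroid plexus mean 0.98. Not all arrays followed these lists. DU6 replicate 4, with Calb2 at 8.58, had list means of 5.70 for choroid plexus, 5.51 for thalamus and habenula and 5.10 for cerebellum. FztDU replicate 1 had a thalamus and habenula mean of 6.06 and Calb2 at 7.61. A gene whose signal followed Calb2 closely over the 10 arrays was Zic1 (Pearson r = 0.921), a zinc finger factor of cerebellar granule cells and of some midline forebrain nuclei. Without DU6 replicate 2 its r was 0.867 over 9 arrays. Zic1 was lowest in FztDU replicate 2 at 7.27, where Calb2 was lowest too. The within-line SD of Calb2, 1.01, was at or above that of 99.7% of all clusters, and the same percentage held for its SD of 0.890 without DU6 replicate 2. The part of neighbouring tissue in that spread was not tested.

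Reelin (Reln, chromosome 5, 21884454 to 22344705) is a secreted glycoprotein of neurogliaform cells and of Cajal-Retzius cells, and of cerebellar granule cells. It read 6.94, 8.49, 7.29, 7.12 and 7.28 in DU6 and 7.46, 7.33, 7.46, 7.21 and 7.09 in FztDU. DU6 replicate 2 lay more than 1 log2 unit above every other array, and the remaining 9 arrays lay between 6.94 and 7.46. The difference of 0.11 (95% interval -0.40 to 0.63, adjusted p = 0.994 in limma) became -0.15 (-0.41 to 0.10) without it, and the within-line SD fell from 0.448 to 0.163, that is, from at or above 96.0% to at or above 30.7% of all clusters. The mean over the 5 genes of the Cajal-Retzius list was 5.57 in DU6 replicate 2, against 3.86 to 4.51 in the other 9 arrays. Of this list Trp73, a factor of Cajal-Retzius cells, did not stand out in DU6 replicate 2, with 3.79 against 3.54 to 4.29 elsewhere. Lhx5 and Lhx1, which both Cajal-Retzius and cerebellar Purkinje cells use, did, with 6.34 against 2.48 to 3.49 and 5.57 against 2.95 to 3.82. Ebf3 of the list was also highest in DU6 replicate 2, against 2.99 to 4.66 elsewhere, while Ndnf was lowest there, against 7.28 to 8.16. Lhx1, Ebf3 and Ndnf were named after their values were seen. The part of Cajal-Retzius or cerebellar cells in the Reln values was not tested.

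Neuronal nitric oxide synthase (Nos1, chromosome 5, 117781032 to 117958840) makes nitric oxide in ivy and neurogliaform cells. Its values were 7.69, 8.10, 7.81, 7.88 and 7.22 in DU6 and 7.69, 7.71, 8.04, 7.72 and 7.42 in FztDU. The highest and the lowest array were both DU6. The difference was 0.024 (95% interval -0.32 to 0.37, adjusted p = 0.995 in limma) and -0.066 (-0.41 to 0.27) without DU6 replicate 2.

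Lhx6 (chromosome 2, 36081950 to 36105408) encodes the LIM homeodomain factor that specifies the somatostatin and parvalbumin classes from the medial ganglionic eminence. It read 5.51, 5.94, 6.36, 5.91 and 5.36 in DU6 and 5.69, 5.91, 6.21, 5.64 and 5.65 in FztDU. The means were equal at 5.82, with SDs of 0.39 and 0.24 (n = 5 each), and the FztDU arrays lay inside the DU6 range. The difference was -0.004 (95% interval -0.40 to 0.39), -0.035 (-0.465 to 0.395) without DU6 replicate 2 and 0.21 without the 3 arrays high in choroid plexus genes.

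Of the receptors, ErbB4 (Erbb4, chromosome 1, 68032186 to 69108059) is the neuregulin receptor that supports excitatory synapses onto interneurons. Its signal was 7.66, 7.24, 7.52, 7.27 and 7.24 in DU6 and 7.33, 7.73, 7.61, 7.05 and 7.60 in FztDU. The DU6 arrays lay inside the FztDU range, and the within-line SD of 0.237 was the smallest of the 10. The difference was -0.078 (95% interval -0.39 to 0.23, adjusted p = 0.994 in limma) and -0.042 (-0.37 to 0.29) without DU6 replicate 2. CB1 (Cnr1, chromosome 4, 33924593 to 33948831) holds back transmitter release from the terminals of cholecystokinin basket cells. It read 9.59, 10.12, 9.34, 9.43 and 8.98 in DU6 and 9.44, 9.33, 9.64, 9.15 and 9.17 in FztDU. DU6 replicate 2 was the highest array and DU6 replicate 5 the lowest, and the difference of 0.15 (95% interval -0.25 to 0.54) became -0.011 (-0.33 to 0.30) without DU6 replicate 2.

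Set against the mean of the other 9 arrays, DU6 replicate 2 was higher by 2.48 for Pvalb, 2.17 for Calb2, 1.25 for Reln, 0.78 for Cnr1 and 0.41 for Nos1. Of all clusters, 99.8% lay below the deviation of Pvalb and 91.3% below that of Nos1. The other 5 members did not follow. Sst deviated by 0.05 and Lhx6 by 0.14, while Vip and Erbb4 each deviated by -0.21 and Cort by -0.58. Of the 10 members, 5 were highest in that array, where an array was highest for at most 2 members otherwise. The share of all clusters highest in that array was not counted, so the 5 have no background to be read against. The part of cerebellar RNA in these 5 values was not tested beyond the differences without the array given above.

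**Figure D3:**
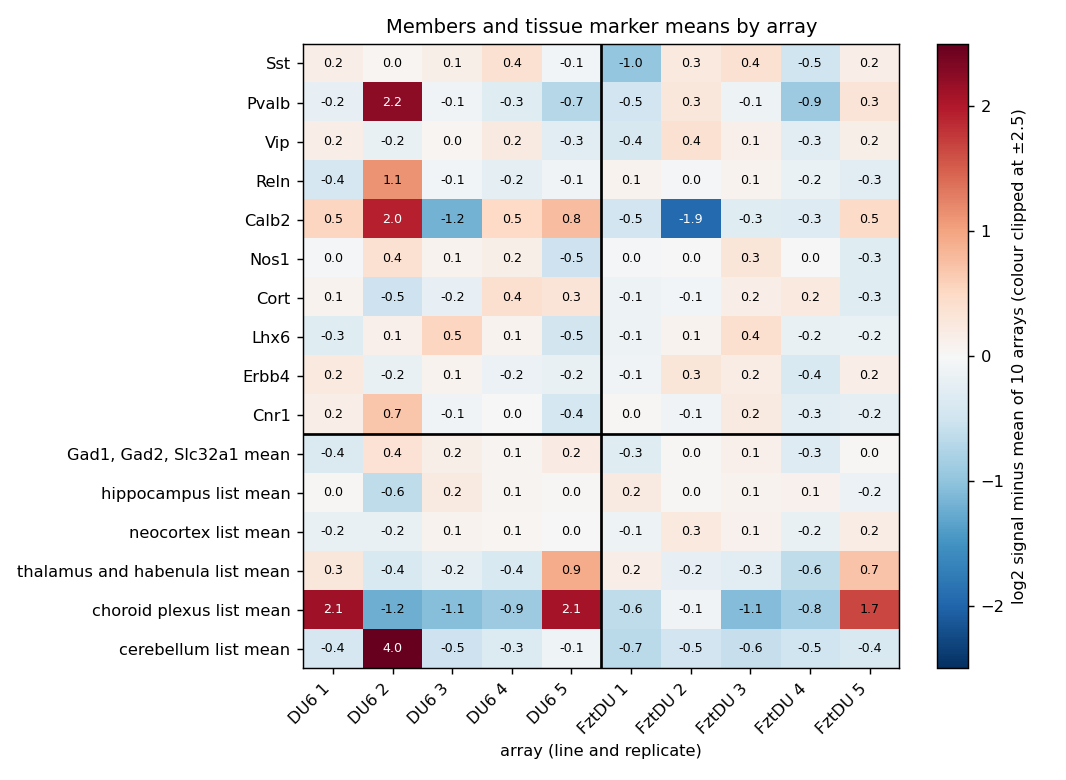
Log2 signal of each member (upper rows) and mean log2 signal of marker lists (lower rows) minus the mean of the 10 arrays, by array (columns, line and replicate); red is above the mean, blue below, and the colour is clipped at ±2.5. DU6 replicate 2 is high for Pvalb, Calb2 and Reln and for the cerebellar list, and the choroid plexus list is high in 3 other arrays.

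The members were also set against the overall level of GABA-cell transcripts. Gad1 and Gad2, which make GABA, and Slc32a1, its vesicular transporter, had a joint mean of 8.23, 8.95, 8.75, 8.67 and 8.80 in DU6 and 8.29, 8.62, 8.73, 8.28 and 8.63 in FztDU. DU6 replicate 1 and FztDU replicates 1 and 4 were low in it, and DU6 replicate 2 was high. The means were 8.68 ± 0.27 and 8.51 ± 0.21 (SD, n = 5 each), a difference of 0.17 (exact two-sided permutation p = 0.262). After this mean was subtracted in each array, 0 of the 10 members differed at p under 0.05 in exact tests. The differences ran from -0.248 for Erbb4 (exact p = 0.278) to 0.86 for Calb2 (exact p = 0.238). Relative to the GABA mean, Erbb4 read -0.57 in DU6 replicate 1 and -1.23 to -1.71 in the other 4 DU6 arrays, against -0.89 to -1.23 in FztDU. Without DU6 replicate 1 its relative difference was -0.43 (exact p = 0.0159), and without DU6 replicate 3 that of Calb2 was 1.30 (exact p = 0.0238). Both were unadjusted, over 10 members and 10 settings with 1 array left out in each, and 0 members differed in the other 8.

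Genes that work with the members were measured in the same way, in 9 lists with 98 clusters in all. At an adjusted p under 0.05, 0 of the 98 passed in limma (0.162% of all clusters did), and 10 passed at an unadjusted p under 0.05, 4 higher and 6 lower (5.86% of all clusters did). Without DU6 replicate 2, 0 passed with adjustment and 12 without, 5 higher and 7 lower (6.55% of all clusters did). Of the 5 receptors shared by somatostatin and cortistatin, 0 were higher and 1 was lower at the unadjusted threshold. That was Sstr2, with 7.56, 6.77, 7.58, 7.08 and 7.31 in DU6 and 7.98, 7.96, 7.71, 7.50 and 7.78 in FztDU. DU6 replicate 2 was lowest, and only FztDU replicate 4 fell below the highest DU6 arrays. The difference was -0.53 (95% interval -0.87 to -0.18, adjusted p = 0.489 in limma) and -0.40 without DU6 replicate 2. The other 4 had differences between -0.154 (Sstr1) and 0.112 (Sstr3). Of the VIP receptor list, with Vipr1, Vipr2, the related receptor Adcyap1r1 and its ligand Adcyap1, 0 of 4 passed, and the largest difference was 0.26 for Adcyap1 (adjusted p = 0.958 in limma).

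Of 7 genes of the reelin pathway, 0 passed at an unadjusted p under 0.05. The receptors Vldlr and Lrp8 differed by 0.17 (95% interval -0.03 to 0.37) and 0.036 (-0.19 to 0.27), the adaptor Dab1 by -0.15 and the kinase Fyn by -0.12. Lrp8 was named after its values were seen. Of 11 genes around ErbB4, 1 was higher, Hbegf, a growth factor that binds the receptor, with a difference of 0.34 (adjusted p = 0.706 in limma). Nrg3, a neuregulin, differed by -0.23 (95% interval -0.49 to 0.02). Of 9 endocannabinoid genes 0 passed, and 7 of the 9 differences were below 0, with a median of -0.096. Faah and Abhd12, which degrade endocannabinoids, differed by -0.19 and -0.16. Without DU6 replicate 2 the median was -0.007, again with 7 of 9 below 0, and Faah and Abhd12 differed by -0.12 and -0.15. Of 11 genes measured around nitric oxide signalling 0 passed. Their median was -0.042 with all arrays and -0.014 without DU6 replicate 2.

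Of the 9 genes common to most interneurons, 8 had a difference above 0 and 1 passed at the unadjusted threshold, Dlx6, a homeobox factor of interneuron precursors, with 0.48 (95% interval 0.02 to 0.95, adjusted p = 0.842 in limma). Of 14 other interneuron transcription factors 0 passed, with differences from -0.14 (Prox1) to 0.27 (Sp9). Without DU6 replicate 2 the Dlx6 difference was 0.62 (adjusted p = 0.543 in limma). Of the transcription factors 1 then passed at the unadjusted threshold, Sp9, with 0.39 (adjusted p = 0.726 in limma). Over all 10 arrays, the 28 markers of other subtypes included 2 higher and 5 lower clusters at the unadjusted threshold, with a median of -0.115. Without DU6 replicate 2 there were 2 higher and 6 lower ones, with a median of -0.119. Npy and Cck, peptides of further classes, were named after their values were seen. They differed by 0.006 (95% interval -0.34 to 0.35) and -0.094 (-0.40 to 0.22) with all arrays, and by 0.051 and 0.046 without DU6 replicate 2.

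Tac1, the precursor of substance P, which some parvalbumin and other interneurons make, separated the lines. It read 7.54, 6.75, 6.55, 6.55 and 6.78 in DU6 and 6.01, 5.80, 5.99, 5.32 and 6.09 in FztDU. Every DU6 array exceeded every FztDU array, which was so for 1.22% of all clusters in either direction and for 1 of the 98 companion clusters. The difference was 0.99 (95% interval 0.56 to 1.42, exact permutation p = 0.00794, the smallest that 5 against 5 can give), but the adjusted p in limma was 0.0924. Among the 8 thalamus and habenula genes, Pou4f1, a habenular factor called expressed in neither line, was highest in DU6 replicate 1, as Tac1 was, at 4.57 against 1.74 to 3.39. Gpr151, another habenular gene, was highest in DU6 replicate 5 at 4.94, with 4.60 in DU6 replicate 1, and the mean of the list was highest in DU6 replicate 5 too. Gbx2 of the list was also highest in DU6 replicate 5, at 4.45. Tcf7l2, Prkcd, Slc17a6, Ntng1 and Chrnb3 were highest in FztDU replicate 5, at 10.31, 9.83, 9.23, 9.59 and 4.6. That array had a list mean of 6.61 and Tac1 at 6.09. DU6 replicates 3 and 4 had list means of 5.65 and 5.51, with Tac1 at 6.55 in both. The part of thalamic or habenular tissue in the Tac1 values was not tested. Without DU6 replicate 1 the Tac1 difference was 0.82 (adjusted p = 0.122 in limma), and without DU6 replicate 2 it was 1.01 (adjusted p = 0.146 in limma).

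Tacr1, the receptor of substance P and a marker of some long-range and dendrite-targeting cells, differed in the same direction, with 5.67, 5.11, 5.50, 5.44 and 5.17 in DU6 and 4.67, 4.96, 4.60, 4.60 and 5.30 in FztDU. Only FztDU replicate 5 reached into the DU6 range. The difference was 0.55 (95% interval 0.21 to 0.89, adjusted p = 0.389 in limma). Adarb2, a marker of interneurons from the caudal ganglionic eminence, read 6.42, 6.77, 6.92, 6.44 and 6.75 in DU6 and 7.45, 6.85, 6.96, 7.22 and 7.16 in FztDU, and only FztDU replicate 2 fell below the highest DU6 array. The difference was -0.47 (95% interval -0.77 to -0.17, adjusted p = 0.442 in limma). The other 4 lower genes, named after their values were seen, were Slc17a8, the glutamate transporter of some cholecystokinin basket cells, with -0.41, Lamp5, a marker of neurogliaform cells, with -0.56, Pthlh, a peptide of some parvalbumin cells, with -0.35, and Htr3a, the serotonin receptor of the caudal eminence class, with -0.75. Their adjusted p in limma lay between 0.649 and 0.749. Without DU6 replicate 2 the differences were -0.38, -0.37, -0.30 and -0.885 in the same order. Penk, the enkephalin precursor, also named after its values were seen, read 7.63, 9.49, 7.80, 8.10 and 7.99 in DU6 and 8.79, 8.43, 8.31, 8.87 and 8.86 in FztDU, so that DU6 replicate 2 lay above all other arrays and the other 4 DU6 arrays below every FztDU array. The difference was -0.45 (95% interval -1.08 to 0.18, adjusted p = 0.976 in limma) with all arrays and -0.77 (-1.10 to -0.45, adjusted p = 0.0997 in limma) without DU6 replicate 2, where the lines did not overlap for 2.18% of all clusters. Vip, Reln and Cnr1, members of classes that share the caudal origin in part, had differences of -0.002, 0.11 and 0.15.

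**Figure D4:**
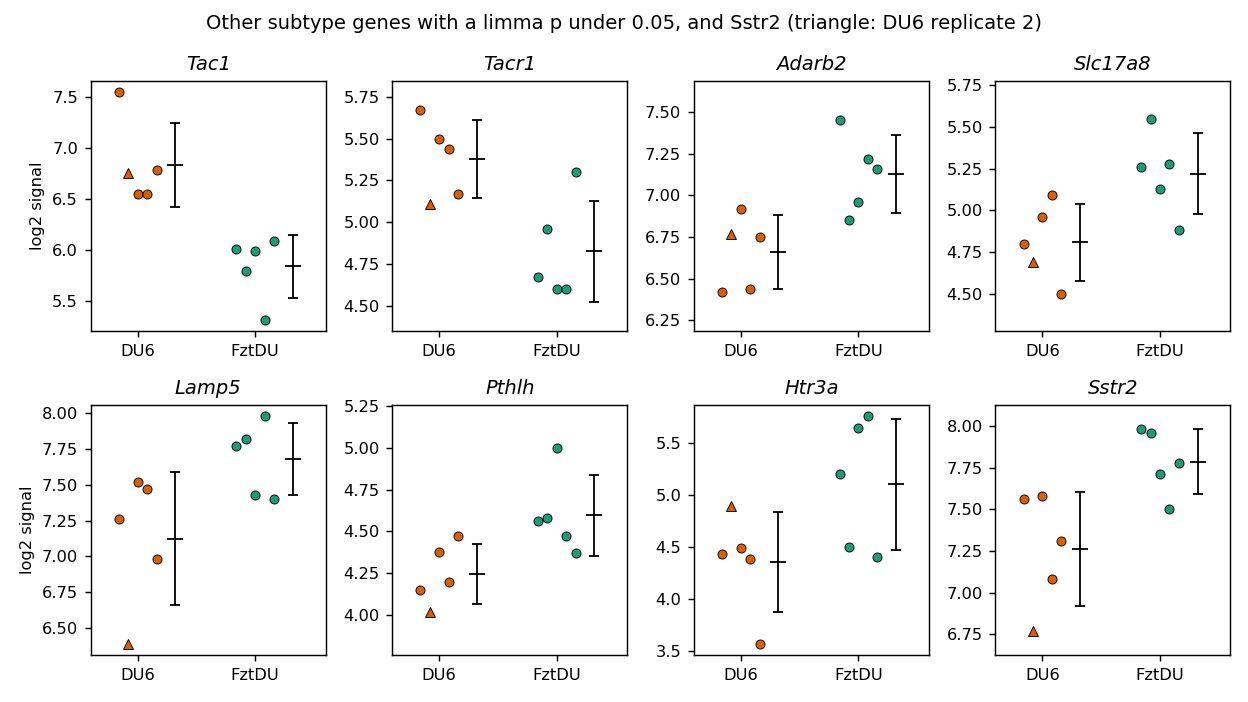
Log2 signal (y axis, a scale of its own in each panel) of the 7 other subtype genes with an unadjusted limma p under 0.05 and of Sstr2, chosen for display by these p-values, in the DU6 arrays (orange) and the FztDU arrays (green), with 1 point per mouse and bars for mean and SD; triangles mark DU6 replicate 2. The lines do not overlap for Tac1 and overlap for the other 7.

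The 2 clusters most like each member were sought by Pearson's r over the 10 arrays among 19033 clusters with 1 symbol. These values describe a choice of the highest and share the arrays and their tissue content. Sst went with Fezf2, a transcription factor from the neocortex list (0.950, and 0.951 over 9 arrays without DU6 replicate 2), and with the purine synthesis enzyme Atic (0.945). Fezf2 was lowest in FztDU replicates 1 and 4, at 7.51 and 7.79, as Sst was. Pvalb went with Ank1 (0.986) and the AMPA receptor subunit Gria4 (0.977), which were 0.940 and 0.881 without DU6 replicate 2. Reln went with Mtcl1 (0.984) and the factor Maf (0.972), and Maf fell to 0.784 without that array.

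For the remaining members the highest r was 0.901 for Vip with the kinase Cdkl4, 0.936 for Nos1 with Fam78a, 0.981 for Cort with Rln1, 0.951 for Lhx6 with Lhpp, 0.935 for Erbb4 with Nras and 0.950 for Cnr1 with the adrenergic receptor Adra1a. The second were Gsk3a, Zfp111, Col13a1, Prmt7, Dio2 and Ncln in the same order, with r from 0.892 to 0.972. None of these partners was another member. Rln1 had a low signal, with a mean of 3.29 over the 10 arrays, beside array medians of 5.47 to 5.52.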

How the data were processed

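Hippocampal RNA of single mice was hybridized to Clariom S Mouse arrays. According to the methods, the authors normalized intensities by SST-RMA, a robust multi-array average with a signal space transformation, in the Transcriptome Analysis Console. The deposited values, 1 for each cluster in each array, are on the log2 scale with annotation on mm10 and were used unchanged. A second deposited table holds the authors' own comparison (line averages, fold changes, p-values and false discovery rates), which was not used. Its averages lie on a wider scale, and the step between both scales is not given in the sources used here, so every difference reported was taken from the array values alone. Its calls of expression per line were used as calls only. Values are not counts, so the number of arrays limits the precision. The age of the mice differs between parts of the sources, and the labels' age is given.

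Members were matched by symbol. Line differences were fitted over all 22206 clusters with limma 3.58.1 in R 4.3.3 (lmFit and eBayes, two-sided, Benjamini-Hochberg), without a filter or covariate. A call needed an adjusted p under 0.05 and a fold over 2. Exact two-sided permutation tests used all 252 splits of the 10 arrays, or all splits of those kept. The script was tested on simulated data. Figures used Python 3.11.15 and matplotlib 3.10.9. The highest share of equal values between 2 arrays was 1.83%, so no array was counted as a duplicate. P-values measure the spread between single mice of each line.

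Members and lists were chosen with earlier results of these data known. Named genes are the members, up to 3 clusters of smallest p per list, the 2 clusters most like each member, and tissue checks. Other genes are marked where they are named. The result of 1 gene is not reported here. Of 13 genes listed around nitric oxide signalling, 11 were measured. The alternatives were quantile normalization, median centring, filters on the lowest 25% or 50% of clusters, weights per array, a trended and robust variance, a block for the replicate number, tissue or GABA means as covariates, and arrays left out.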

Additional observations from a re-analysis of the deposited data

Results flagged for a closer look

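Among 22 sets of 5 arrays examined for 1 array far from the rest, chance alone flags about 1 in 20, and 2 stood out here. DU6 replicate 2 had a Pvalb signal of 9.65, with a gap of 2.33 to the next DU6 array in a range of 2.95 log2 units. The same array had a Reln signal of 8.49, with a gap of 1.20 in a range of 1.55. It was also the array with high cerebellar genes, and the differences without it are given with each gene.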

How the results depend on the processing

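No member was called under any alternative. Over 12 alternatives other than leaving out single arrays, the members' differences ran from -0.239 to 1.179. Adjusted p ran from 0.772 to 0.999 in limma, and 102 of 120 differences kept their direction. The filters, the trended and robust variance and the replicate block leave each difference of means as it was. Under these the direction could not turn, and they are part of the 120. Vip was 0.002 with quantile normalization, and Reln and Nos1 were -0.034 and -0.024 with array weights. With the GABA mean as a covariate Reln was -0.059 and Nos1 -0.012. With the cerebellar mean Pvalb was -0.239, Vip 0.053, Reln -0.199, Nos1 -0.07 and Cnr1 -0.029, and with the choroid plexus mean Lhx6 was 0.063. Without the 3 arrays high in choroid plexus genes Vip was 0.066, Cort -0.162 and Lhx6 0.208, and without these and DU6 replicate 2 Vip was 0.173, Reln -0.16, Lhx6 0.273 and Cnr1 -0.005. The cause of these turns was not tested.

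Leaving out each array in turn gave 0.055 to 0.392 for Sst, -0.145 to 0.592 for Pvalb, -0.104 to 0.094 for Vip, -0.152 to 0.235 for Reln, 0.671 to 1.456 for Calb2, -0.066 to 0.154 for Nos1, -0.059 to 0.172 for Cort, -0.14 to 0.11 for Lhx6, -0.182 to -0.012 for Erbb4 and -0.011 to 0.274 for Cnr1. The median ran from -0.023 to 0.152, the members higher at an unadjusted p under 0.05 from 0 to 1 (Calb2), and those that differed relative to the GABA mean from 0 to 1. Among companion genes 1 passed with trend and robust in eBayes, an alternative chosen after seeing the data (Tac1, adjusted p = 0.0414).

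The replicate number as a block leaves each difference as it was, with a median of 0.075. With that block 0 members passed, and no call changed. Arrays of the same number deviated together (r over 0.1) in 3 of 5 pairs, with r from -0.023 to 0.287. The mean r between arrays of other numbers was -0.0258. The labels give the numbers as biological replicates only, and the main fit did not take them as pairs. Whether the numbers mark a shared step of processing was not tested. With 5 mice per line, wide intervals limit each difference, that of Calb2 most.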
